A study of Mus musculus with 6 samples.

Results

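Smooth muscle contractile genes were examined here as a set of 30 gene symbols, chosen by name for their place in the contractile filaments, the intermediate filaments and dense bodies, the adhesion plaque, calcium handling and relaxation, or the transcriptional control of smooth muscle. The choice was made with earlier results of these data known. All 30 were found among the 24421 gene symbols of the count table, and all 30 passed the filter on low counts. The samples were whole prostates of C57BL/6 mice aged 52 weeks. The control group was 3 libraries from mice with floxed p62 alleles (p62f/f, which the labels also call wild type), and the knockout group was 3 libraries with the same floxed alleles and a Cre recombinase named for FSP1 (p62FSP1KO, described as a stromal knockout of p62). Floxed alleles were thus shared by both groups, and Cre was carried by the knockout group alone. p62, the product of Sqstm1, delivers cargo to autophagosomes and scaffolds signalling complexes, and FSP1 is the protein encoded by S100a4, whose promoter is active in fibroblasts and in some myeloid cells. Whether the 3 libraries of a group are 3 animals is not stated in the labels, and the p-values cover the spread among these libraries, which may be technical.

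The stroma of the mouse prostate holds sheaths of smooth muscle around the ducts, which contract to expel secretion. In smooth muscle, calcium binds calmodulin and activates myosin light chain kinase, the kinase phosphorylates the regulatory light chain, and myosin then pulls on actin filaments that are anchored at dense bodies and at adhesion plaques of the membrane. Serum response factor (SRF) with its partner myocardin switches on many of these genes through a short DNA element, the CArG box. A fibroblast can take up some of the same genes, above all Acta2 and Tagln, when it becomes a myofibroblast.

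Total counts ran from 12826463 to 26910053 per library, and the 30 genes together took 0.309% to 0.798% of them. Sqstm1 did not check the labels, since in whole tissue its level was 355 ± 57.4 CPM in controls (counts scaled to a common library size with TMM factors; SD, n = 3) against 463.5 ± 76.8 CPM in the knockout libraries (adjusted p = 0.355, edgeR's quasi-likelihood test). Libraries stood apart in both groups. Across all tested genes control 3 had a Spearman correlation of 0.938 and 0.942 with the other controls, which correlated at 0.985 with each other, and knockout 1 had 0.953 and 0.958 with the other knockouts, which correlated at 0.986. Control 3 held 1094 CPM in 6 adipocyte markers against 4.44 to 63.7 CPM in the other 5 libraries. Sbp, Sbpl and Spink1, secretory genes of the ventral prostate, summed to 49130 to 164600 CPM in controls and to 3.03 to 91.8 CPM in knockouts.

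Most of the contractile genes had positive fold changes, but none passed the test. Knockout 1 lay within or below the range of the controls for 17 of 30. This count describes the set alone, as its share over all genes is not given. In whole tissue, differences in smooth muscle cell number, in contractile RNA per cell and in the other tissue present cannot be told apart. The groups also differed in the ventral-type secretory genes above. Of 30 genes, 25 (83.3%) had a positive log2 fold change of knockout over control, against 52.4% of all 13762 genes tested, and the median log2 fold change was 0.72 against 0.03. In edgeR's quasi-likelihood test with Benjamini-Hochberg adjustment over all tested genes, 0 of 30 passed a false discovery rate of 0.05, a threshold that 5.07% of all tested genes passed (0.414% as higher and 4.66% as lower). The smallest adjusted p was 0.0612. At an unadjusted p under 0.05 there were 14 genes higher (46.7%), against 8.62% of all tested genes, and 1 lower (3.33%), against 13.5%. limma-voom also called 0, where it called 4.85% of all genes. edgeR with each library left out in turn called 0 of the 30 each time, where it called 3.2%, 3.41% and 3.92% of all genes without control 1, 2 and 3, and 3.2%, 1.83% and 2.02% without knockout 1, 2 and 3. At a false discovery rate of 0.1 it called 4 of the 30 higher (13.3%, against 1.42%), while DESeq2 called 8 genes higher and 0 lower (26.7% of the 30, against 3.32% of all genes it tested as higher). In 12 of 30 genes (40%) the lowest knockout library exceeded the highest control, against 14.1% of all tested genes, and in 1 gene (3.33%, against 18.3%) the reverse held. All these shares are descriptions, since the genes were chosen with earlier results known and tended to move together across libraries.

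**Figure D1:**
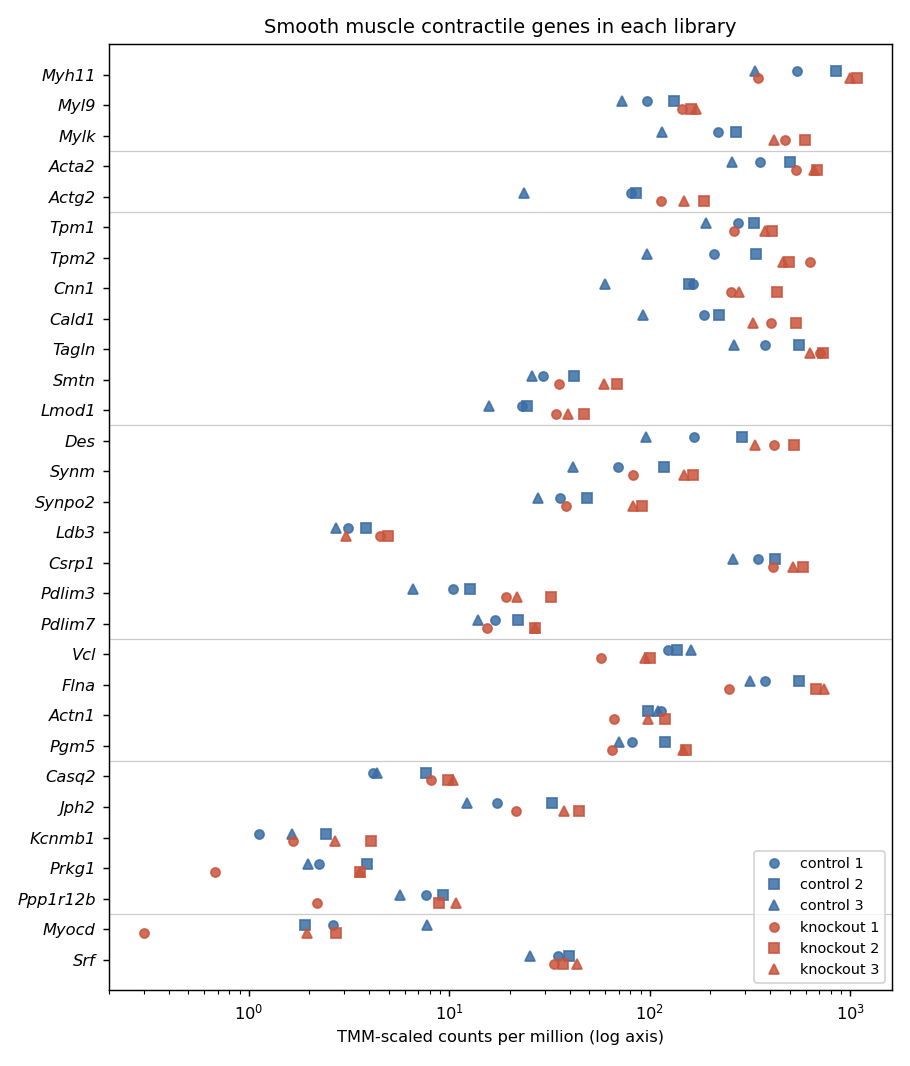
Level of each of the 30 contractile genes in TMM-scaled CPM on a log axis, with 1 point per library (blue, control; red, knockout) and grey lines between roles. For the actins, Mylk, Cnn1, Cald1, Lmod1, Des and Pdlim3 the red points lie to the right of all blue points, and for Vcl they lie to the left.

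Which libraries were high and low was much the same from gene to gene. Control 3 was the lowest of the 6 libraries for 21 of 30 genes, and knockout 2 was the highest for 21. These counts are given without their shares over all tested genes, so they describe the set and do not set it apart. Summed over the 30 genes the level was 3964, 5435 and 2712 CPM in control 1, 2 and 3, and 5431, 7998 and 6889 CPM in knockout 1, 2 and 3. On this sum control 2 and knockout 1 stood level, so the groups overlapped there. Centred gene by gene on the average of all libraries, the median log2 level was -0.30, 0.11 and -0.71 in the controls and -0.13, 0.60 and 0.47 in the knockouts.

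**Figure D2:**
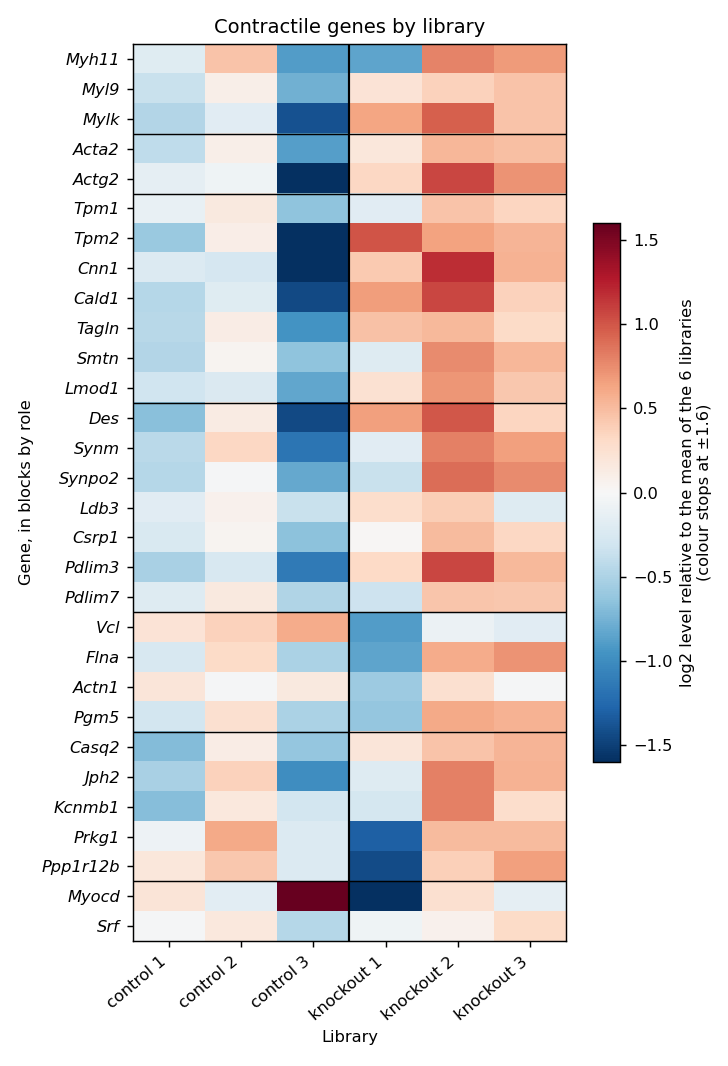
Heat map of the log2 level of each contractile gene in each library after subtraction of its 6-library mean, with genes in blocks by role and a black line between control and knockout libraries. Control 3 is blue in most rows, knockout 2 and 3 are red in most rows, and knockout 1 is red for Mylk, Tpm2, Cald1 and Des but blue for Myh11, Flna, Prkg1, Ppp1r12b and Myocd.

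Within the set, knockout 1 lay below both knockout 2 and knockout 3 for 24 of 30 genes. That count is given without its share over all tested genes, so it does not set these genes apart. Over 13254 tested genes with a known length, the median log2 level of knockout 1 minus the mean of knockout 2 and 3 was -0.01. Without knockout 1, the remaining knockout libraries lay above all 3 controls in 23 of 30 genes (76.7%), against 20.5% of all tested genes. Leaving out control 1, 2 or 3, or knockout 2 or 3, gave 12, 18, 12, 12 and 13 genes, against 20.3%, 20%, 18.1%, 17.8% and 21.6% of all tested genes. Without control 3 and knockout 1 together the number was also 23, against 26.2% of all tested genes. In that fit of 2 libraries against 2, edgeR called 8 of the 30 higher and 0 lower, against 2.62% of all genes called higher. The left-out pair was chosen with earlier results of these data known, so these calls are a description and not a separate line of support. These 8 were Mylk, Actg2, Cnn1, Cald1, Smtn, Lmod1, Synpo2 and Pdlim3, and DESeq2 on all 6 libraries called 6 of them, with Tpm2 and Des in place of Smtn and Synpo2.

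The level in knockout 1 also moved with gene length over all genes. Relative to the mean of knockout 2 and 3, its median log2 level was 0.44 for 1767 tested genes with under 2000 bases of merged exons, 0.11 for 4079 genes of 2000 to 4000 bases, -0.13 for 5061 genes of 4000 to 8000 bases and -0.27 for 2347 genes over 8000 bases. For control 3 against the other controls these medians were -0.04, 0.01, 0.00 and -0.01. The fold change between groups followed length less steeply, with medians of 0.31, 0.10, -0.04 and -0.08 in these 4 classes. Among the contractile genes the difference of knockout 1 had a median of -0.30 in 4 genes under 2000 bases and -1.18 in 7 genes over 8000 bases, below the median of all genes in each class. The part of length in the fold changes of the contractile genes was not tested.

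**Figure D3:**
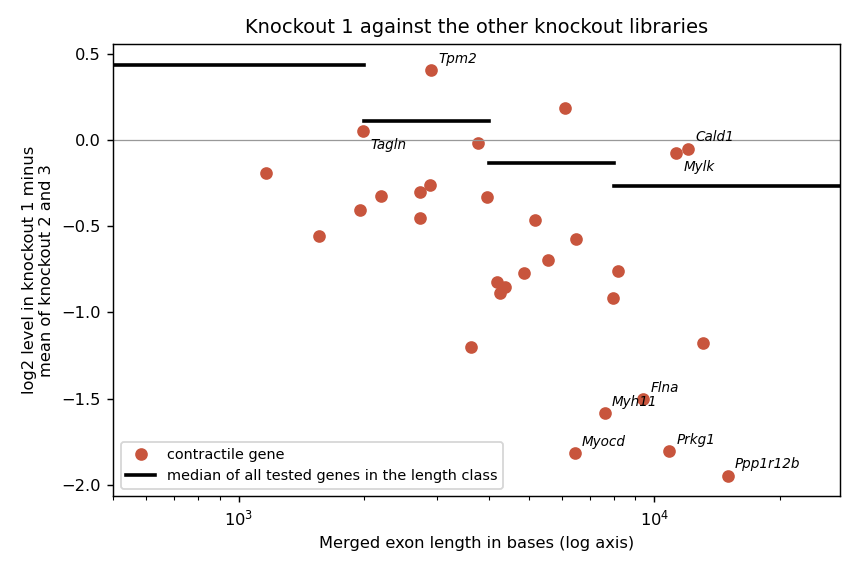
Log2 level of each contractile gene in knockout 1 minus the mean of knockout 2 and 3, against its merged exon length on a log axis. Black bars give the median over all tested genes in each length class, from 0.44 under 2000 bases to -0.27 over 8000 bases. Most contractile genes lie below these bars, while Tpm2, Mylk, Cald1 and Ldb3 lie above theirs.

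The motor and its switch come first. Myh11, the smooth muscle myosin heavy chain and the most specific marker of mature smooth muscle in the set (GRCm38 chromosome 16, 14194535-14291372 on the minus strand), had 542, 854 and 335 CPM in the controls (1, 2 and 3, in that order here and for each gene that follows) against 346, 1079 and 999 CPM in the knockouts. The groups overlapped, because knockout 1 stood beside control 3, and the log2 fold change was 0.49 ± 0.50 (SE; adjusted p = 0.583, edgeR). Mylk, which encodes myosin light chain kinase (chromosome 16, 34745210 to 35002420, plus strand), was at 219, 269 and 115 CPM in controls and at 473, 593 and 419 CPM in knockouts. Here every knockout library lay above every control, with a log2 fold change of 1.30 ± 0.33 and an adjusted p of 0.0737 (edgeR). Myl9, the regulatory light chain that this kinase phosphorylates, was at 97.2, 132 and 72.6 CPM in controls and at 145, 161 and 170.5 CPM in knockouts. Its groups did not overlap either, and its log2 fold change was 0.66 ± 0.24 (adjusted p = 0.172, edgeR).

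The smooth muscle actins were both above the controls in all knockout libraries. Acta2, the alpha actin of vascular and visceral smooth muscle and of myofibroblasts (chromosome 19, 34241090-34255590 on the minus strand), had 355, 504 and 256 CPM in controls and 534, 680.4 and 659 CPM in knockouts. Actg2, the gamma actin of visceral smooth muscle (chromosome 6, 83512905-83536265 on the minus strand), had 81.0, 84.97 and 23.6 CPM in controls and 113, 187.5 and 147.5 CPM in knockouts. The log2 fold changes were 0.75 ± 0.29 and 1.24 ± 0.45, with adjusted p of 0.193 and 0.175 (edgeR). Within a library the ratio of Actg2 to Acta2 counts was 0.228, 0.169 and 0.0924 in controls and 0.212, 0.276 and 0.224 in knockouts, so the groups overlapped (p = 0.3, exact permutation test). No stretch of 75 bases, the read length, in the longest coding transcript of any of the 30 genes was found unchanged in a transcript of another gene. The search compared transcripts on their own strand only, so it did not cover genes that overlap on the opposite strand. Reads with mismatches could also still be shared between actin genes.

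Of 7 thin filament genes, 7 had positive fold changes (100%, against 52.4% of all tested genes) and 5 had knockout values all above the controls (71.4%, against 14.1%). Cald1 encodes caldesmon, which binds actin and restrains myosin (chromosome 6, 34598500 to 34775473, plus strand), and it had the largest fold change of the 30 genes. It was at 186, 222 and 92.9 CPM in controls and at 404, 534.5 and 328 CPM in knockouts, a log2 fold change of 1.34 ± 0.35 (adjusted p = 0.0810, edgeR). Cnn1, calponin, another actin-binding brake on contraction, was at 164, 157 and 59.9 CPM in controls and at 253, 430.2 and 278.5 CPM in knockouts (log2 fold change 1.34 ± 0.40; adjusted p = 0.118, edgeR). In both genes the groups were apart, with control 3 lowest and knockout 2 highest.

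The tropomyosins, which lie along the actin filament, differed in the size of their fold change. Tpm2 was at 208, 339 and 97.0 CPM in controls and at 633, 494 and 461 CPM in knockouts, with no overlap and a log2 fold change of 1.30 ± 0.43 (adjusted p = 0.139, edgeR). Tpm1, which many cell types express, was at 275, 330.5 and 190.0 CPM in controls and at 263, 407 and 377 CPM in knockouts, with overlap and a log2 fold change of 0.40 ± 0.28 (adjusted p = 0.422). The ratio of Tpm2 to Tpm1 counts was 0.756, 1.025 and 0.510 in controls and 2.41, 1.22 and 1.22 in knockouts. Every knockout ratio was above every control ratio. Tpm2 has 2909 bases of merged exons and Tpm1 6485, and the level of knockout 1 moved with gene length. Its log2 level relative to the mean of knockout 2 and 3 was 0.41 for Tpm2 and -0.57 for Tpm1. The part of length in the ratio was not tested, and the ratio was chosen after its values were seen. An exact permutation test gave p = 0.1 (0.133 adjusted over 4 ratios), the smallest p it can give here, so it cannot decide and the ratio is a description. Lmod1, leiomodin, which starts new actin filaments (chromosome 1, 135324807 to 135368065, plus strand), was at 23.0, 24.4 and 15.85 CPM in controls and at 34.0, 47.0 and 39.0 CPM in knockouts, with a log2 fold change of 0.92 ± 0.23 (adjusted p = 0.0644, edgeR). Tagln, transgelin, was at 375, 553 and 264 CPM in controls and at 704, 731 and 629 CPM in knockouts, again without overlap (log2 fold change 0.79 ± 0.30; adjusted p = 0.187). Smtn, smoothelin, had a log2 fold change of 0.75 ± 0.29 with overlapping groups, as knockout 1 (35.2 CPM) lay below control 2 (42.1 CPM). Of the merged exon bases, 62.4% in Tagln are shared with Gm48529 and 16.3% in Smtn with Gm11946, both on the opposite strand. Neither Gm48529 nor Gm11946 is in the count table, and the strand setting of the counting is not given.

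**Figure D4:**
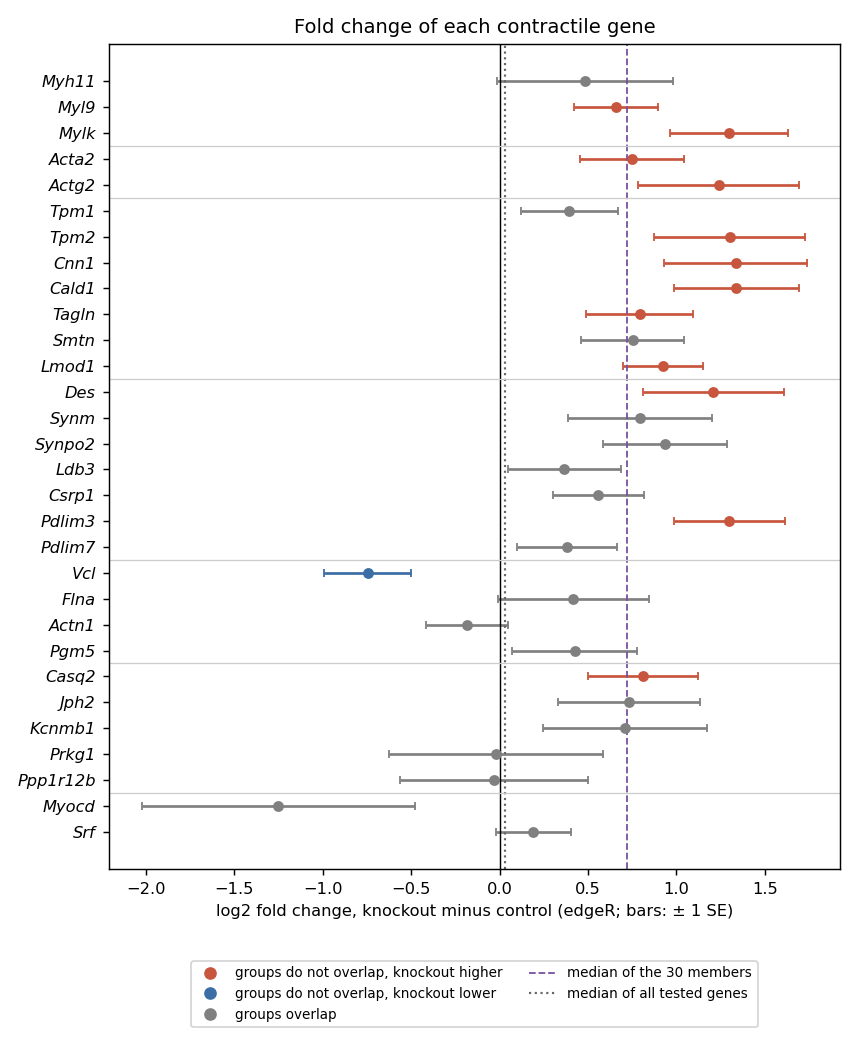
Log2 fold change of knockout over control for each contractile gene from edgeR, with bars of 1 SE, in order of role. The dashed line is the median of the 30 genes (0.72) and the dotted line the median of all tested genes (0.03). Red points mark the 12 genes whose knockout values all lie above the controls, and the blue point marks Vcl, whose knockout values all lie below.

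The intermediate filament and dense body genes were positive in 7 of 7 cases (100%, against 52.4% of all tested genes), and 2 of them had knockout values all above the controls (28.6%, against 14.1%). Des, which encodes desmin, the main muscle intermediate filament (chromosome 1, 75360329 to 75368579, plus strand), was at 165, 289.6 and 96.2 CPM in controls and at 415, 525.5 and 335 CPM in knockouts (log2 fold change 1.21 ± 0.40; adjusted p = 0.141, edgeR). Pdlim3, a PDZ and LIM domain protein of the actin anchoring sites (chromosome 8, 45885461 to 45919548, plus strand), had the smallest adjusted p of the 30 genes. It was at 10.4, 12.6 and 6.63 CPM in controls and at 19.1, 32.25 and 21.8 CPM in knockouts, a log2 fold change of 1.30 ± 0.31 (adjusted p = 0.0612, edgeR). The others overlapped between groups. Synm (synemin, a partner of desmin) and Synpo2 (an actin-bundling protein of muscle) had log2 fold changes of 0.79 ± 0.41 and 0.93 ± 0.35. Csrp1, a LIM domain protein of the smooth muscle cytoskeleton, Pdlim7 and Ldb3, the latter better known from the striated muscle Z-disc, had log2 fold changes of 0.56, 0.38 and 0.37 (adjusted p of 0.253 to 0.520 for these 3).

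The genes that anchor actin at the membrane and crosslink it were mixed in direction, with 2 of 4 fold changes positive. Vcl, which encodes vinculin (chromosome 14, 20929398 to 21033676, plus strand), was at 124, 137.5 and 161 CPM in controls and at 57.1, 100.1 and 94.3 CPM in knockouts. It was the 1 gene of the set with all knockout values below all controls, a log2 fold change of -0.75 ± 0.24 (adjusted p = 0.139, edgeR). Of its merged exon bases 25.5% are shared with Ap3m1 on the opposite strand, and since the strand setting of the counting is not given, reads there are uncertain. Ap3m1 itself had 68.5 ± 14.8 CPM in the control and 69.6 ± 6.55 CPM in the knockout group (SD, n = 3). Actn1, a crosslinking alpha-actinin found in many cell types, was at 114, 97.5 and 110.2 CPM in controls and at 66.1, 119 and 97.6 CPM in knockouts (log2 fold change -0.19 ± 0.23; adjusted p = 0.658, edgeR). Flna, filamin A, was at 376, 557 and 317 CPM in controls, and at 249.8 CPM in knockout 1 but 678 and 740.3 CPM in knockout 2 and 3. Pgm5, aciculin of the adhesion plaque, had the same arrangement, at 64.85 CPM in knockout 1 and 152 and 147 CPM in the others against 70.2 to 119.7 CPM in controls. Knockout 1 was thus the lowest of the 6 libraries for all 4 genes of this group. For Actn1 the sign of the fold change rested on knockout 1, since without it the log2 fold change was 0.015.

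Calcium store and relaxation genes were expressed at low levels. Casq2, the calsequestrin that holds calcium in the sarcoplasmic reticulum, was at 4.15, 7.66 and 4.37 CPM in controls and at 8.12, 9.825 and 10.4 CPM in knockouts, with no overlap (log2 fold change 0.81 ± 0.31; adjusted p = 0.190, edgeR). Jph2, junctophilin, which holds the reticulum against the cell membrane, and Kcnmb1, the smooth muscle subunit of the BK potassium channel, had log2 fold changes of 0.73 ± 0.40 and 0.71 ± 0.46 with overlapping groups. Prkg1, the cGMP-dependent kinase that relaxes smooth muscle, was counted 46, 61 and 29 times in controls and 9, 87 and 94 times in knockouts. Ppp1r12b, a subunit that targets myosin phosphatase, was at 7.66, 9.26 and 5.67 CPM in controls and at 2.18, 8.91 and 10.8 CPM in knockouts. In both genes knockout 1 was far below the other 5 libraries, and the log2 fold changes were -0.02 ± 0.60 and -0.03 ± 0.53. Without knockout 1 they were 0.415 and 0.392, with adjusted p of 0.575 and 0.466 (edgeR).

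The transcriptional regulators of the programme did not pass the test. Srf was at 34.7, 39.6 and 25.4 CPM in controls and at 33.4, 36.85 and 43.6 CPM in knockouts (log2 fold change 0.19 ± 0.21; adjusted p = 0.613, edgeR). Myocd, myocardin, was counted 54, 30 and 113 times in controls and 4, 66 and 51 times in knockouts. Its highest level, 7.72 CPM, was in control 3, the library in which most contractile genes were lowest, and its lowest, 0.301 CPM, was in knockout 1. The log2 fold change was -1.25 ± 0.77 (adjusted p = 0.369, edgeR), and it was 0.032 without control 3 and knockout 1.

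The promoters of the set bear on this axis, as SRF binds the CArG box. RefSeq windows from 250 bases before to 50 bases after the start (GRCm38.p6) were matched for 26 of the 30 genes, all but Myh11, Actg2, Tagln and Myocd, and the consensus CArG box, which reads the same class of letters on both strands, was found in 4 of them (15.4%), against 1.81% of 27025 genes with a window. With 1 of the 6 inner letters allowed to be G or C, 8 of 26 (30.8%) had a match, against 11.3% of all genes. Stretches of 80 bases around the boxes are given for the 4 genes with a consensus box and for Acta2, whose pair of boxes each differ from the consensus by 1 inner letter, with the boxes in capitals.
Srf (chr17:46556190-46556269, minus strand): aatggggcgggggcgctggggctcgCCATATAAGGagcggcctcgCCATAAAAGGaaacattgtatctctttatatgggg
Myl9 (chr2:156775268-156775347, plus strand): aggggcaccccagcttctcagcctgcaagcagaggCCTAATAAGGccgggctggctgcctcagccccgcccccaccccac
Vcl (chr14:20929148-20929227, plus strand): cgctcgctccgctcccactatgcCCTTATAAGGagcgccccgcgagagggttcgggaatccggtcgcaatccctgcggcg
Ldb3 (chr14:34588682-34588761, minus strand): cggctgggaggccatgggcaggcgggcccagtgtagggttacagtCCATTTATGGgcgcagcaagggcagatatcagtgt
Acta2 (chr19:34255388-34255467, minus strand): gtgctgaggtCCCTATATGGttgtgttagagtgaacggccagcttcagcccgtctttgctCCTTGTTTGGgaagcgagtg
The 4 genes with a consensus box did not share a direction, with log2 fold changes of 0.66 for Myl9, 0.37 for Ldb3, 0.19 for Srf and -0.75 for Vcl. A match describes these letters and is not evidence of binding in these samples.

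Per kilobase of merged exons, the most abundant transcripts of the set in controls were Tagln (199.8 CPM per kilobase), Csrp1 (174.5) and Acta2 (169). In knockouts the same 3 genes led, at 346, 257 and 284 CPM per kilobase, followed by Tpm2 at 182. Myocd, Prkg1, Ppp1r12b, Kcnmb1 and Ldb3 were at 0.242 to 0.683 CPM per kilobase in both groups. Merged exons count all annotated isoforms, so the level of genes with several promoters, such as Mylk and Cald1, is understated.

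Among 58 other genes of contraction and its control, 56 were tested, 0 rose and 2 fell (3.57%, against 4.66% of all tested genes), with a median log2 fold change of 0.21. The genes that fell were Chrm3 and Myh10. Chrm3 encodes the M3 muscarinic receptor, through which acetylcholine contracts smooth muscle and which secretory epithelium also carries. It was at 3.76, 4.72 and 3.90 CPM in controls and at 0.826, 0.622 and 0.421 CPM in knockouts (log2 fold change -2.75 ± 0.39; adjusted p = 0.00811, edgeR), and the adjusted p was 0.0543 without knockout 2. Myh10, non-muscle myosin IIB (chromosome 11, 68691559 to 68816632, plus strand), was at 44.9, 43.3 and 90.3 CPM in controls and at 3.01, 9.37 and 11.8 CPM in knockouts (log2 fold change -2.87 ± 0.52; adjusted p = 0.0217, edgeR). Its adjusted p was 0.0883 without knockout 2 and 0.0571 without knockout 3.

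Set against the non-muscle myosins, Myh11 is given as a description, since Myh10 entered through its own fall. Myh11 counts were 12.1, 19.7 and 3.71 times those of Myh10 in controls and 115, 115 and 84.7 times in knockouts. Against Myh9, non-muscle myosin IIA, the ratio was 0.627, 0.839 and 0.408 in controls and 1.36, 2.11 and 1.17 in knockouts. Both ratios were higher in every knockout than in every control. For each, an exact permutation test gave p = 0.1 (0.133 adjusted over 4 ratios), the smallest p it can give here, so it cannot decide. Myh9 itself had 902 ± 103 CPM in the control and 539.6 ± 300.2 CPM in the knockout group (SD, n = 3; adjusted p = 0.333, edgeR).

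**Figure D5:**
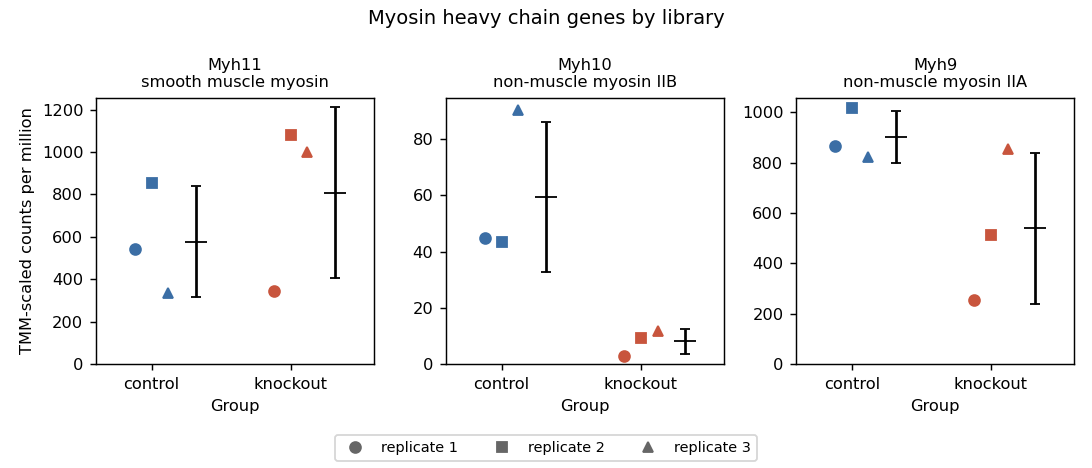
Levels of Myh11, Myh10 and Myh9 in TMM-scaled CPM, each on its own axis from 0, with 1 point per library (marker shape gives the replicate) and black bars for the mean ± SD of 3 libraries. Myh11 overlaps between groups, whereas Myh10 lies at 43.3 to 90.3 CPM in controls and 3.01 to 11.8 CPM in knockouts.

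No other contraction gene passed in edgeR on all 6 libraries with the count filter. Agtr1a, the angiotensin receptor of vascular smooth muscle, stood at 142 ± 137 CPM in controls, led by control 3 at 299 CPM, and at 21.7 ± 7.91 CPM in knockouts (log2 fold change -2.70; adjusted p = 0.0656, edgeR). Without control 3 its log2 fold change was -1.52 and it passed (adjusted p = 0.0359, edgeR), as it did without a count filter (0.0486), without control 3 and knockout 1 (0.0212) and with DESeq2 (0.000148), and over all alternatives at the 0.05 threshold its adjusted p ran from 0.000148 to 0.18. Itga8, an integrin subunit, stood at 12.6 ± 2.71 and 6.07 ± 2.52 CPM (adjusted p = 0.162). Of the genes with positive fold changes, the smallest p belonged to Gucy1b3 (soluble guanylate cyclase, the nitric oxide sensor), Pln (phospholamban, which restrains the reticulum calcium pump), Ryr2 (a calcium release channel) and Tpm4 (a further tropomyosin). Their log2 fold changes were 1.12, 2.09, 1.14 and 0.51, with adjusted p of 0.0952 to 0.147 (edgeR). In each of these genes, picked by smallest p, every knockout lay above every control. The same held for 13 of the 56 tested genes of this list (23.2%), against 14.1% of all tested genes. Gucy1b3 passed with DESeq2 (adjusted p = 0.0242), and Tpm4 passed in edgeR without control 3 and knockout 1 (adjusted p = 0.0293). Pln was counted at most 45 times in any library. The cytoplasmic actins Actb and Actg1 had log2 fold changes of 0.52 and -0.01.

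Markers of other cells that share members of the set were measured beside it. Of 19 skeletal muscle markers 8 were tested, and 2 fell (25%, against 4.66% of all tested genes), the myosin heavy chains Myh1 and Myh2 (adjusted p = 0.00981 and 0.0110, edgeR). The 19 summed to 56.5 to 90.9 CPM in controls and 59.3 to 96.9 CPM in knockouts, with Myod1 and Myog at 0 counts in all libraries. Without Acta1, the most abundant of them, the sums were 28.8 to 42.5 CPM in controls and 18.5 to 28.0 CPM in knockouts, which did not overlap. None of 7 tested pericyte markers passed, and the 8 summed to 44.9 to 88.3 CPM in controls and 28.25 to 56.9 CPM in knockouts. None of 12 fibroblast markers passed, with sums of 485.8 to 819 CPM in controls and 526 to 799 CPM in knockouts. The summed level of the contractile genes was 8.16, 10.2 and 3.31 times that of the fibroblast markers in controls and 10.3, 10.01 and 9.29 times in knockouts, so that control 3 was the library set apart. None of 9 luminal epithelial markers passed, and against their sum the ratio was 0.894, 1.32 and 0.821 in controls and 1.04, 1.79 and 1.53 in knockouts. None of 5 basal epithelial markers passed, and their sum was 95.9 to 141 CPM in controls and 145 to 255 CPM in knockouts, without overlap. All 5 had positive fold changes (100%, against 52.4% of all tested genes), with a median log2 fold change of 0.71 beside 0.72 for the contractile genes. In 2 of the 5 every knockout lay above every control (40%, as in the contractile genes, against 14.1% of all tested genes). None of 8 endothelial markers passed either. Their sum was 56.9 to 70.5 CPM in controls and 76.4 to 105.2 CPM in knockouts, but the groups overlapped without Emcn, at 42.5 to 67.9 CPM and 45.5 to 82.3 CPM. Seminal vesicle markers, 7 in all, summed to at most 3.91 CPM in any library. The part of the basal and endothelial markers, the ventral-type secretory level, the adipocyte markers of control 3 and gene length in these differences was not tested.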

How the data were processed

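PolyA RNA of whole prostates was sequenced single-end (75-base reads) from directional libraries, per the labels' protocols. STAR, DESeq2 and mm10 are listed in the submitters' processing notes, with neither version nor role. Which program and annotation gave the counts, and with which strand setting, is not stated in the sources used. The authors deposited whole-number read counts per gene symbol for 6 libraries, without normalization. Every value column could be mapped to a library (0 unmapped). The genotype label set the groups, while replicates were numbered by accession.

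Counts were tested with edgeR 4.0.16 in R 4.3.3 (filterByExpr with a minimum count of 10, leaving 13762 genes; TMM factors; quasi-likelihood F test; no covariate; Benjamini-Hochberg adjustment over all tested genes at 0.05). Standard errors are the absolute fold change over the square root of F, and the common biological coefficient of variation was 32.5%. The fit was tested on simulated data. Log2 levels by library and length used log2(CPM + 0.5). limma 3.58.1 and DESeq2 1.42.0 were alternatives, with other scalings, filters, thresholds and left-out libraries. GENCODE M21 (GRCm38, which mm10 names) supplied coordinates and merged exon lengths, and 23334 of 24421 symbols matched once. Reads carry no molecular identifiers, so counts are not independent molecules.

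The genes, lists and alternatives were chosen with earlier results of these data known. All 30 contractile genes are named, with up to 4 other contraction genes in each direction by smallest p, Sqstm1, S100a4 and markers past the threshold. Actb, Actg1, Myh9, Ap3m1, the ratios between genes, the list sums without Acta1 or Emcn and the non-overlap counts with libraries left out were chosen after their values were seen. S100a4 had 6.29 ± 1.96 CPM in the control and 9.62 ± 5.66 CPM in the knockout group (SD, n = 3; adjusted p = 0.455, edgeR).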

Additional observations from a re-analysis of the deposited data

How the results depend on the processing

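No paired analysis was possible because the labels give no replicate numbers or animals shared between the groups. The count of contractile genes past the threshold was 0 under every other scaling, filter and limma-voom and with each library left out (0 to 0), but 8 with DESeq2, 8 without control 3 and knockout 1 together and 4 at a false discovery rate of 0.1 (Mylk, Cald1, Lmod1 and Pdlim3). Over all genes 698 passed, against 1618 with DESeq2, 1229 without those 2 libraries, 1190 at 0.1, and 255 to 551 with each library left out. Of the other contraction genes 2 passed, against 4, 6 and 4 in the same 3 settings and 0 to 3 with each library left out. The median log2 fold change of the 30 genes was 0.48 to 1.01 under all settings. The number of genes whose knockout values all lay above the controls, 12, was 12 to 23 with each library left out and 23 without control 3 and knockout 1. Directions turned only for Actn1, Myocd, Prkg1 and Ppp1r12b among the 30. With upper-quartile factors the log2 fold change of Prkg1 was 0.038 and that of Ppp1r12b 0.027. With libraries left out singly, Prkg1 ran from -0.3023 to 0.415, Ppp1r12b from -0.4229 to 0.392 and Actn1 from -0.3859 to 0.015, positive for the first 2 without control 2 (0.33 and 0.14) and for all 3 without knockout 1. Without control 3 and knockout 1 the values were 0.24, 0.22 and 0.0321 for these 3 and 0.0324 for Myocd. The cause was not tested. With library size alone the median log2 fold change of all genes was -0.10 and that of the 30 genes 0.63. Prkg1, Kcnmb1, Myocd and Ldb3 were counted under 100 times in most libraries, which limits their precision.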
